A study of Mus musculus with 26 samples.

Results

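The regions described here are SMC3 sites of C2C12 myoblasts that no longer carried a called SMC3 peak in myotubes although the same place was open chromatin in control myotubes. They were chosen from the deposited peak lists. Peaks of the 2 myotube and the 2 myoblast SMC3 lists on chromosomes 1 to 19 and X were merged where they shared at least 1 bp. A region was kept when both myoblast lists and neither myotube list had a peak in it and when it touched a peak in both ATAC lists of control myotubes. Of 42567 merged regions, 1544 met this rule, which is 3.63% of all and a subset of the 5458 myoblast-only regions (12.8% of all). They are called the open myoblast-only regions below.

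SMC3 is a core subunit of cohesin, the ring-shaped complex that holds sister chromatids together and shapes chromatin loops, often between enhancers and promoters. ATAC-seq reads open chromatin through the places where the transposase Tn5 can insert. DRR is the distal regulatory region upstream of Myod1, a master regulator of muscle differentiation, and the enhancer RNA transcribed from it is the RNA that the probes and the siRNA of the study target.

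C2C12 is a single mouse muscle cell line whose dividing myoblasts fuse to form myotubes with many nuclei. Per the labels, myoblasts grew in 20% serum and myotubes formed in 2% horse serum with insulin, transferrin and selenium. SMC3 ChIP-seq was done in myotubes transfected with siDRR, in myotubes for which the labels give no transfection, and in myoblasts. ATAC-seq was done in myotubes transfected with siSmc3, siDRR or a control siRNA. ChIRP-seq, in which tagged probes recover an RNA and the chromatin bound to it, was done in myotubes with 2 probe pools against DRR. Each of these 8 groups had n = 2 libraries, and the labels name no separate cultures, so the spread between libraries may be technical. The other 10 of the 26 samples, inputs and LacZ probe libraries, were not analysed here, and the values below have no background library to compare with. No expression data were used, so neither the stage of the cells nor the extent of the knockdowns could be checked against marker genes.

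Every list is one of called peaks, and its length bears on all shares below. The SMC3 lists held 8384 and 23196 peaks with siDRR, 15056 and 26765 in myotubes, and 30955 and 33154 in myoblasts. The ATAC lists held 80897 and 103056 peaks with siSmc3, 69841 and 98592 with siDRR, and 58138 and 99548 in controls. The ChIRP lists held 3776 and 68812 summits for pool 1, and 23087 and 20295 for pool 2. The first library of each SMC3 and ATAC group had the shorter list. Read depth is unknown, and list length can follow depth as much as binding. A region without a peak is therefore a region below the authors' calling threshold, not one shown to be free of SMC3.

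The highest-ranked region by myoblast SMC3 score lies on chromosome 8 from 130496380 to 130498417 (mouse build mm9, as are all positions below). Scores are the authors' own, on a scale that is not stated, and were used only to rank peaks within a list: a rank percentile of 100 is the best peak of its list. This region ranked at 88.9 and 94.9 in the first and second myoblast libraries, and its 2 myoblast peaks, of 483.85 and 746.21 in score, overlapped nearly end to end. No myotube SMC3 peak lay nearer than 382 kb in the first and 50.3 kb in the second myotube list, and neither siDRR list had a peak in the region. All 6 ATAC lists did, at rank percentiles of 28.9 and 83.0 with siSmc3, 77.1 and 77.2 with siDRR, and 44.6 and 83.6 in controls. The second libraries of the siSmc3 and control groups thus ranked it far above the first, while the siDRR libraries gave like ranks. No ChIRP summit came within 250 bp.

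The widest region spans 10255 bp on chromosome 8 from 87496946 to 87507200, and behaved otherwise. It ranked at 67.9 and 99.4 in the 2 myoblast libraries, the second being the highest score of any of the regions in that list. With siDRR the second SMC3 library called it at a rank percentile of 95.1, with 1 peak over nearly its whole length, and the first did not call it. The myotube lists left it out by the selection, but the second had a peak 4.66 kb away. Control ATAC peaks filled most of it, at rank percentiles of 61.6 and 66.3. The first siSmc3 and the first siDRR library had no ATAC peak there, while the second libraries had one at 47.1 with siSmc3 and 19.5 with siDRR. The map of both regions shows every peak around them.

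**Figure D1:**
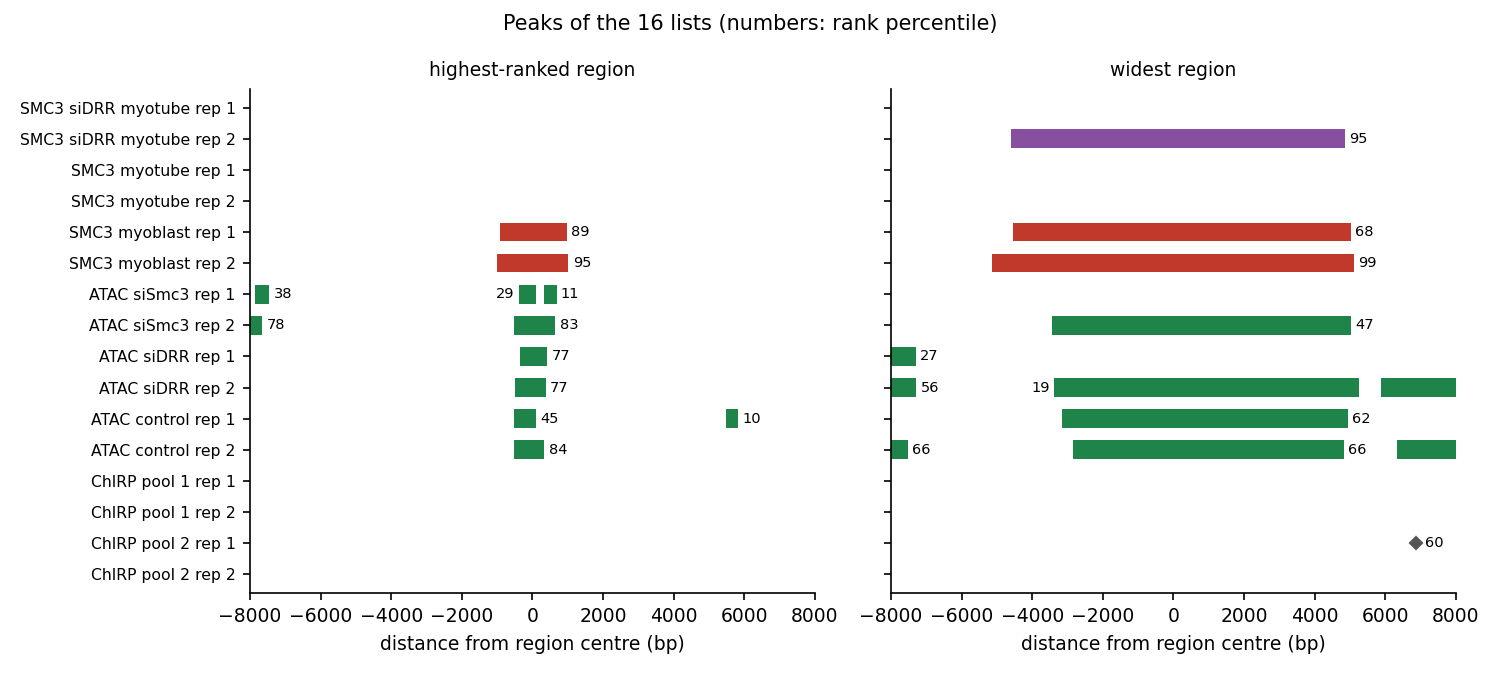
Peaks of the 16 lists around the highest-ranked region (left) and the widest region (right); the horizontal axis is the distance from the region centre in bp, each line is 1 library, bars are SMC3 or ATAC peaks, diamonds are ChIRP summits, and the numbers are rank percentiles in the library's own list. The left region had SMC3 peaks in the 2 myoblast libraries alone and ATAC peaks in all 6 lists; the right region had a siDRR SMC3 peak at 95.1 in the second library and ATAC peaks in 4 of the 6 lists.

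The open myoblast-only regions were mostly weak sites of the myoblast lists. Their median rank percentile was 23.7 in the first and 34.5 in the second myoblast library, and the mean over both had a median of 29.0, with 80% of regions between 11.7 and 52.0 and extremes of 0.310 and 91.9. Scores reached down to 50.07 and 50.03, where the lists themselves start at 50. The 2821 myoblast-only regions with no control ATAC peak, called closed here, had nearly the same median of the mean rank, 29.7. The 3298 regions called in all 4 SMC3 lists and accessible in both control ATAC lists, called constant open regions, stood far higher at 80.0. These ranks used the lists that chose the regions and are descriptions, with no test. The membership depended on list length: with the myotube and myoblast SMC3 lists all cut to their best 15056 peaks, 240 regions met the rule, and 68 of the 1544 (4.40%) were among them. Most of the regions thus had, in at least 1 myoblast list, a peak outside its best 15056, and the first myotube list ends at that number.

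The weakest of the regions lay on chromosome 4 from 94824805 to 94826144, with myoblast scores of 50.21 and 50.29, and a peak of the second myotube library lay 1.14 kb from it. It had ATAC peaks in both control lists, at 37.5 and 66.7, and in the second siSmc3 and siDRR lists, at 63.4 and 75.1. Just outside the rule stood 1093 myoblast-only regions with a peak in 1 of the 2 control ATAC lists, 1016 of them in the second list and 77 in the first. The one with the highest myoblast rank, on chromosome 5 from 104082887 to 104084054, missed the rule with a single control peak at a rank percentile of 5.1 in the second list, and no knockdown ATAC list had a peak there. The second siDRR SMC3 library called it at 38.3. The boundary of the set thus follows largely the shorter control list.

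The 2 myoblast libraries did not rank the regions alike. The second library gave the higher rank percentile in 1028 of the 1544 open regions (66.6%), with a median difference of 9.43 points, second minus first. The closed regions went the other way, with the second library higher in 1019 of 2821 (36.1%) and a median difference of -6.66 points. In the constant open regions the second library was higher in 62.2%. The same split appeared among regions called in 1 myoblast library and no myotube library: 951 of the open kind came from the first library and 2717 from the second, against 2495 and 1202 of the closed kind. Libraries with the replicate number 2 also called more of their peaks in open chromatin in the other SMC3 groups. The share of peaks touching both control ATAC lists was 24.7% and 39.1% with siDRR, 25.3% and 40.6% in myotubes, and 28.2% and 37.3% in myoblasts, first and second library. Among the best 8384 peaks of each list it was still 24.7% and 32.1%, 24.8% and 31.9%, and 24.8% and 33.1%. The part of this library difference in the results below was not tested, and values are therefore given per library.

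In control myotubes their best ATAC peak had a median rank percentile of 69.8 in the first and 86.4 in the second library, against 60.5 and 72.7 in constant open regions. The other 14988 SMC3 regions that touch both control lists had medians of 74.8 and 84.7, so the open regions stood below them in the first library and slightly above in the second. These are descriptions, since the lists chose the sets. The top of the range is on chromosome 5 from 3151871 to 3152798, where the 6 ATAC lists gave 99.6 to 99.9, beside myoblast SMC3 ranks of 52.2 and 47.9. The next, on chromosome 2 from 139891129 to 139893312, had ATAC ranks of 99.5 to 99.9 and SMC3 ranks of 24.4 and 53.9 in myoblasts. The second siDRR library alone called SMC3 there in myotubes, near the foot of its list at 2.15.

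**Figure D2:**
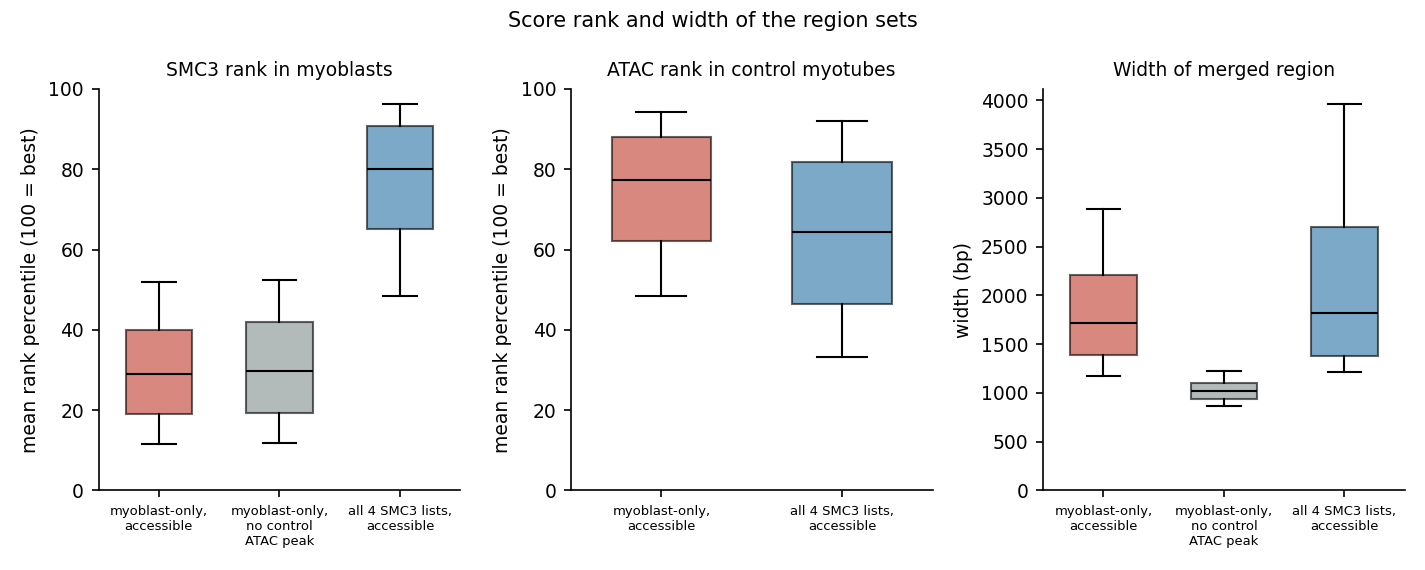
Mean myoblast SMC3 rank percentile (left), mean control ATAC rank percentile (middle) and merged width in bp (right) of the region sets; boxes are quartiles, lines medians and whiskers the 10th and 90th percentiles over regions. Open myoblast-only regions share a low SMC3 rank with closed ones (medians 29.0 and 29.7, constant open 80.0) but are about as wide as constant open regions (medians 1713 and 1818 bp, closed 1015 bp).

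The open regions were also wide. Their median width was 1713 bp, with 80% between 1172 and 2885 bp, against 1015 bp in closed regions, of which 80% lay between 867 and 1225 bp. Single peaks showed the same difference. The best single myoblast peak had a median width of 1467.5 bp in the first and 1633 bp in the second library, against 856 and 996 bp in closed regions and 1399.5 and 1630 bp in constant open regions. A wider region meets an ATAC peak more easily, so width and accessibility are tied by the rule, and no test was made. After the region on chromosome 8, the widest were on chromosome 9 from 102631159 to 102638154 (6996 bp) and on chromosome 15 from 10743175 to 10750132 (6958 bp). The region on chromosome 15 had high ATAC ranks throughout: 98.6 and 87.5 with siSmc3, 92.6 and 87.1 with siDRR, and 93.0 and 86.8 in controls.

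Few open regions met their ATAC peak only at an edge. The smallest overlap was 39 bp, and the control ATAC peaks covered a median of 52.2% and 61.9% of the region in the 2 libraries. The first control library had 1 ATAC peak in 1443 regions (93.5%) and the second in 1347 (87.2%), and the rest held up to 3 in the first and up to 4 in the second. The centre of the ATAC peak lay a median of 123 and 111 bp from the centre of the myoblast SMC3 peak with the same replicate number. It was within 250 bp in 73.8% and 76.9% of open regions, against 61.6% and 63.9% of constant open regions. The plot of these offsets shows a single narrow peak at 0 in both libraries. Both lists entered the rule, so the offset is a description too.

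**Figure D3:**
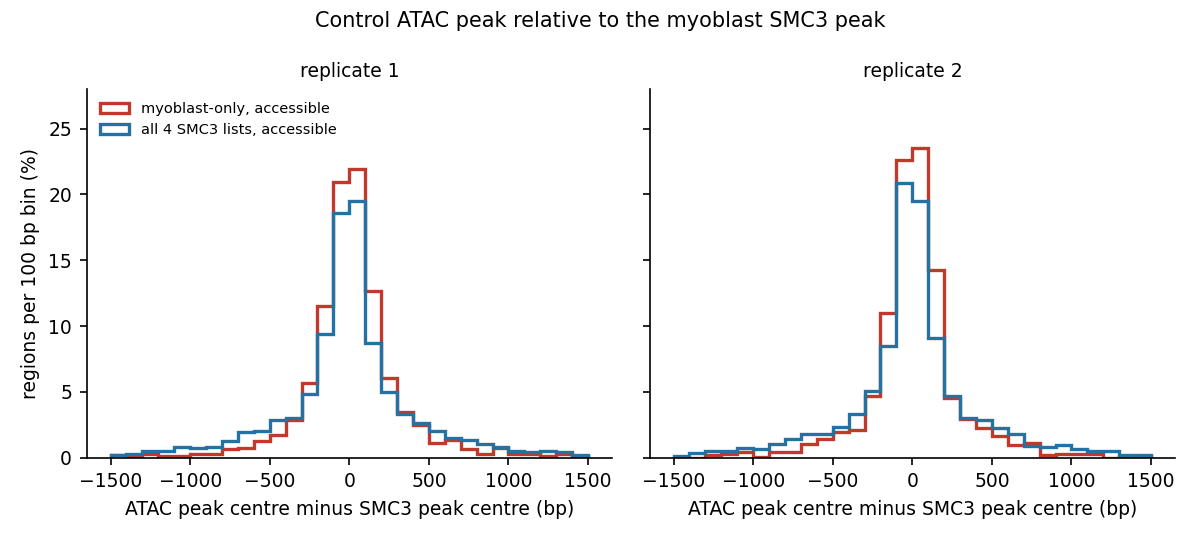
Share of regions per 100 bp bin (%) by the distance of the control ATAC peak centre from the myoblast SMC3 peak centre (bp), for replicates 1 and 2; offsets beyond 1500 bp are not drawn. Both sets peak at 0, with medians of the absolute distance of 123 and 111 bp in open myoblast-only regions and 153.5 and 146 bp in constant open regions.

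The first measurement outside the rule is SMC3 in myotubes depleted of DRR RNA. Because the regions have no peak in the myotube lists by choice, any siDRR call there can only be a gain over those lists. The labels give a transfection for the siDRR libraries only, so siDRR and transfection itself cannot be told apart here. The first siDRR library called 9 of the 1544 regions (0.583%, exact 95% binomial interval 0.267 to 1.10), beside 0.751% of all 15053 regions absent from both myotube lists. The second called 400 (25.9%, 23.7 to 28.2), beside 11.1%. Of those 15053 regions only 36.3% were called in both myoblast lists, so this background holds many regions of 1 myoblast list. Among myoblast-only regions with 1 control ATAC list the 2 siDRR libraries called 1.46% and 15.1%. Among 3668 regions of 1 myoblast list that touch both control ATAC lists they called 26 and 544. Intervals are Clopper-Pearson, treat regions as independent and cover counting error only. Both libraries called 2 regions, beside a background of 0.206%, and at least 1 library called 407 (26.4%), beside 11.6%. The mean over the siDRR libraries was 13.2 ± 17.9% (SD, n = 2), so the spread between libraries exceeded the mean.

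Compared with closed regions, the 2 siDRR libraries pointed in opposite directions. The second called 25.9% of open and 11.9% of closed regions, while the first called 0.583% of open and 1.70% of closed regions. With 1 library on each side, no difference over libraries was shown. Within the second library, closed regions weighted to the open regions' myoblast rank gave 11.5%, weighted to their width 12.4%, and weighted to both 10.8%. The share called climbed with myoblast rank in both sets, from 15.6% of open regions in the lowest of 10 rank classes to 47.7% in the highest, and from 2.87% to 27.1% of closed ones, and open regions stood higher in each of the 10 classes. By width the order was mixed. In classes 1, 2, 3 and 7 of 10, 26.7%, 11.8%, 28.6% and 19.4% of open regions were called. Of closed ones it was 7.14%, 7.33%, 9.39% and 17.9%. Classes 1 to 3 held only 15, 17 and 21 open regions. In classes 4 to 6 of 10, from 1012 to 1234 bp, 0% of 22, 13.9% of 36 and 17.7% of 96 open regions were called, against 12.7%, 15.9% and 21.6% of closed ones. In the 3 widest classes 21.6%, 32.0% and 32.6% of open regions were called, against 5.13%, 13.0% and 12.0% of the 78, 54 and 25 closed ones, and the width-weighted share rests largely on these few closed regions. The size and sign of the gap also moved with the lists, each of which gives another set of regions. At least 1 siDRR library called 21.4% of open and 18.9% of closed regions with the better-scoring 50% of each list, and 70% and 64.2% with the myotube and myoblast SMC3 lists alone cut to equal length. With all SMC3 lists cut to 8384 peaks and all ATAC lists to 58137, it was 48.8% of 125 open and 52.8% of closed regions, and only 2 of the 1544 were among those 125. With the first libraries left out of both the choice and the readout it was 17.1% of open and 11.2% of closed regions, and with the second left out 4.92% and 5.47%.

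**Figure D4:**
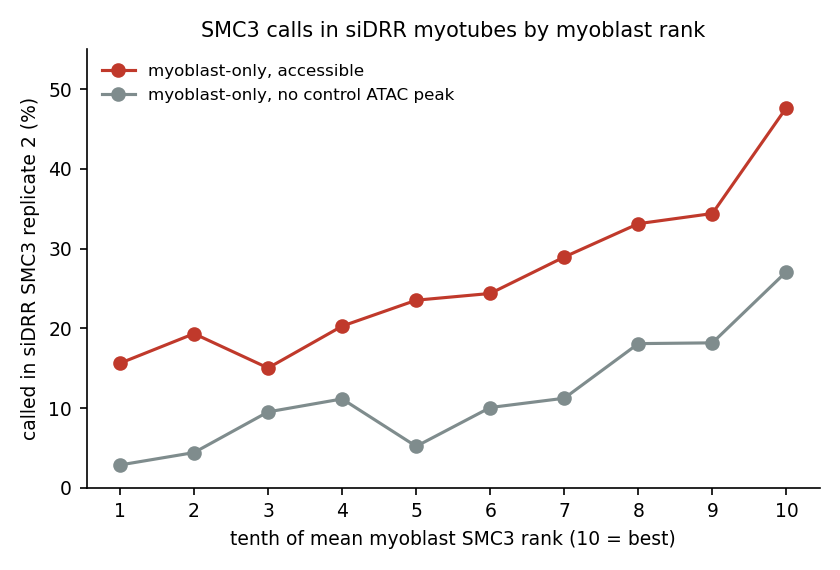
Share of regions called in the second siDRR SMC3 library (%) by class of the mean myoblast SMC3 rank percentile, with 10 classes of equal size set over open and closed myoblast-only regions together and 10 the best. Open regions run from 15.6% in the lowest to 47.7% in the highest class and lie above closed regions, which run from 2.87% to 27.1%, in each class.

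The 400 regions called in the second siDRR library were weak there, with a median rank percentile of 20.5. They were wider than the other 1144, with a median of 1886 against 1656 bp, and stood higher in the myoblast lists, at 34.8 against 27.1, and in control ATAC, at 82.1 against 75.7. These are medians over regions with no test. The pair of regions called in both siDRR libraries had mean myoblast ranks of 58.0 and 53.6, above the 90th percentile of open regions, 52.0. One is on chromosome 6 from 4455124 to 4460027, 4904 bp wide, with siDRR ranks of 25.9 and 49.6 and myoblast ranks of 46.7 and 69.4. The nearest myotube peaks lay 34.2 and 14.5 kb away. The other, on chromosome 18 from 63621999 to 63623939, had siDRR ranks of 14.3 and 19.8, myoblast ranks of 33.1 and 74.1, and myotube peaks no nearer than 27.0 kb. Apart from the widest region, the highest siDRR rank among the 400 was 74.5, on chromosome 10 from 127056054 to 127061191, a region singled out after its values were seen.

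Most of the open regions stayed accessible when Smc3 or DRR RNA was targeted. An ATAC peak was present in 81.0% and 98.8% of them with siSmc3 and in 89.8% and 98.9% with siDRR, first and second library. Both libraries kept a peak in 1244 regions with siSmc3 (80.6%), beside 80.0% of all 16532 accessible SMC3 regions, and in 1386 with siDRR (89.8%), beside 86.3%. Peaks stood in all 6 ATAC lists in 1169 regions (75.7%), against 74.4% of all accessible SMC3 regions, so the open regions were close to the rest. Since the rule demanded both control peaks, a knockdown library could only equal or fall below the controls. Closed regions, which lack control peaks by the rule, had ATAC peaks in 5.42% and 15.5% with siSmc3 and in 5.99% and 13.8% with siDRR.

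The siSmc3 libraries averaged 89.9 ± 12.5% and the siDRR libraries 94.4 ± 6.41% of open regions with a peak (SD, n = 2 each). The difference, siSmc3 minus siDRR, was -4.47 percentage points and did not pass a two-sided exact permutation test over libraries (p = 0.667, the smallest p this design allows being 0.333). It was -8.81 points in the first libraries and -0.130 in the second, so nearly all of it came from the first pair. Constant open regions gave 70.3% and 95.9% with siSmc3 and 79.5% and 97.4% with siDRR, lower than the open myoblast-only regions in each library. In both siSmc3 lists, 80.6% of open myoblast-only regions had a peak, against 80.5% of constant open regions weighted to the same control ATAC rank. In both siDRR lists the shares were 89.8% and 88.1% in the same order. Weighted to the same width instead, constant open regions gave 66.7% with siSmc3 and 76.8% with siDRR. The sets thus lay within 2 percentage points at matched control rank, which the rule used, and further apart at matched width.

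**Figure D5:**
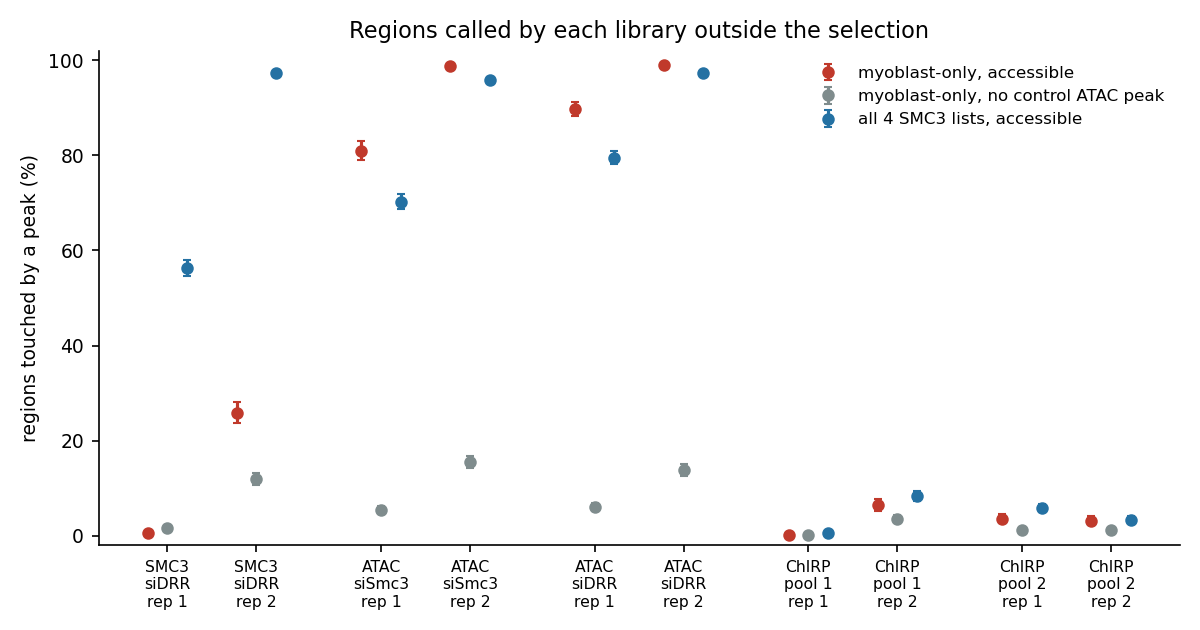
Share of regions touched by a peak (%) in each library that the rule did not use, for open myoblast-only, closed myoblast-only and constant open regions; points are shares and bars exact 95% binomial intervals, which cover counting error only. The second siDRR SMC3 library called 25.9% of open and 11.9% of closed regions, the first 0.583% and 1.70%; ATAC peaks with siSmc3 or siDRR were in 81.0 to 98.9% of open regions.

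Whether an open region kept its ATAC peak followed its control rank. In the lowest of 10 classes of control ATAC rank, set over all accessible SMC3 regions, 55.2% and 89.6% of 125 open regions had a peak with siSmc3 and 57.6% and 90.4% with siDRR. In the highest class, with 109 regions, the shares were 99.1% and 100% with siSmc3 and 100% in both siDRR libraries. Among regions with a peak, the rank itself was about that of controls in the second libraries, with median differences from the control of the same number of 0.427 points with siSmc3 and -0.242 with siDRR. In the first libraries it was higher, by 6.07 points with siSmc3 and 7.13 with siDRR, where regions without a knockdown peak drop out of the median. Constant open regions shifted by 5.77 and 1.14 points with siSmc3 and 4.28 and 1.99 with siDRR, first and second library. The other accessible SMC3 regions shifted by 2.94 and -0.118 points with siSmc3 and 2.58 and 0.243 with siDRR. Ranks are taken within lists of unlike length: the first lists held 80897 peaks with siSmc3, 69841 with siDRR and 58138 in controls. The part of list length in these shifts was not tested, so they are not changes in accessibility.

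Loss of accessibility in both libraries was rare. With siSmc3, 12 of 1544 regions (0.777%) had no ATAC peak in either library, beside 2.21% of accessible SMC3 regions. With siDRR, 16 regions (1.04%) had none, beside 1.30%. The siSmc3 loss of highest control rank was on chromosome 2 from 117678630 to 117679887, with control ranks of 54.2 and 65.9. Its second siDRR library still had an ATAC peak at 74.7, and the second siDRR SMC3 library called the region at 20.9. On chromosome 9 from 114492514 to 114493595, control ranks were 47.3 and 52.7, and the siDRR libraries kept peaks at 51.5 and 73.9 where neither siSmc3 library had one. Myotube SMC3 peaks lay as near as 0.704 kb to it.

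Under siDRR the lost region of highest control rank was on chromosome 13 from 92032547 to 92033461, with control ranks of 56.1 and 61.4 and a peak at 60.0 in the first siSmc3 library alone. The region on chromosome 16 from 23217824 to 23219111 showed the reverse of the one on chromosome 9, with no siDRR peak, siSmc3 ranks of 64.9 and 81.5, and control ranks of 30.2 and 70.8. On chromosome 15 from 58378077 to 58379948 a peak at 44.1 in the second siSmc3 library was the only one left, beside control ranks of 65.5 and 40.2. The control ranks of these regions were thus in the middle of the lists, below the median of the open regions as a whole.

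In 4 of the 1544 regions no knockdown library had an ATAC peak. The like share of all accessible SMC3 regions was not computed, so this count cannot be set against a background. In each of the 4 at least 1 control peak was low in its list. On chromosome 8 from 11923807 to 11924943 the control ranks were 59.7 and 9.5, although the myoblast SMC3 ranks of 78.9 and 59.3 were among the higher ones. On chromosome 5 from 142870530 to 142871473 they were 13.2 and 53.8. On chromosome X from 70721483 to 70722693 they were 36.4 and 17.5. The last, on chromosome 12 from 28933255 to 28934289, had 25.0 and 0.740. None of the 4 had an SMC3 peak in a siDRR library.

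Few of the open regions lay within 250 bp of a ChIRP summit of DRR RNA. Per length, about as many were touched as of SMC3 regions in general or fewer, depending on the library. With ChIRP summits widened by 250 bp on each side, pool 1 touched 3 and 100 regions and pool 2 touched 55 and 49, first and second library. In all, a widened summit of at least 1 library touched 171 of the 1544 regions (11.1%) and none touched 1373, beside 12.5% of all accessible SMC3 regions touched. At least 1 library of each pool touched 4 regions (0.259%), beside 0.319% of all SMC3 regions, and no region was touched in all 4 libraries. The like share was 0.788% of constant open regions, 0.732% of myoblast-only regions with 1 control ATAC list and 0% of closed regions. Per Mb of region it was 1.35 open regions, against 2.11 of all SMC3 regions and 3.45 constant open regions. Per Mb of region, the 4 libraries touched 1.01, 33.8, 18.6 and 16.5 open regions (pool 1 first and second library, then pool 2), against 2.39, 36.5, 25.6 and 15.0 constant open regions and 2.85, 35.7, 23.0 and 16.2 of all SMC3 regions. Closed regions, at 2.01, 33.5, 12.1 and 10.7 per Mb, were lower for pool 2. Region length was counted without the 250 bp widening, which raises the values of narrow sets such as the closed regions. Per-Mb values of sets of unlike width are therefore not like for like, and a near match cannot be read as equality. The first pool 1 library, whose list is the shortest, touched 3 open and 6 closed regions, too few to set an order. None of these differences was tested.

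The 4 regions touched by both pools were on chromosomes 2, 5, 8 and 17. The pools marked no shared place inside any of them. On chromosome 2 the summits of pools 1 and 2 stood at 152462617 and 152461832. With the first pool 2 library they stood at 38692878 and 38694003 on chromosome 5, and at 72985363 and 72983257 on chromosome 8. Those on chromosome 17, at 66867933 and 66867846, both lay before the start of the region. On chromosome 8 from 72983101 to 72987092 the summits of pool 2 ranked at 46.0 and 59.8 and that of the second pool 1 library at 29.1, and the second siDRR SMC3 library called the region at 23.2. On chromosome 5 from 38692223 to 38694668 they ranked at 77.3 and 71.8 for pool 2 and 43.9 for pool 1, and a myotube SMC3 peak lay 3.72 kb away in each list. The region on chromosome 2 from 152461706 to 152463788 had 1 summit of each pool, at 14.1 and 1.28, low in both lists. The region on chromosome 17 from 66867975 to 66869718 had pool 1 at 56.7 and pool 2 at 74.8, beside an SMC3 call at 1.96 in the second siDRR library. The first pool 1 library touched none of the 4.

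Most of the open regions lay further than 10 kb from an SMC3 region called in myotubes. The nearest region called in at least 1 myotube SMC3 list lay a median of 18797 bp from an open region, against 18425 bp for closed regions, and the nearest called in both lists 42147 bp, against 37887 bp. Within 5 kb of a region of at least 1 myotube list stood 18.9% of open and 22.3% of closed regions. Open regions lay nearer to other open regions than closed and constant open regions did. The nearest other open region was a median of 248138 bp away, and 502 regions (32.5%) had one within 100 kb, while 537 of 2821 closed regions and 19.7% of constant open regions had an open region within that distance. Closed and constant open regions are more numerous but were counted against the same 1544 regions, and no test was made. Distances among closed regions and among constant open regions were not measured. Nearness to its own kind can therefore not be called particular to the open set.

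The closest pair of open regions was separated by 173 bp on chromosome 16, from 55635817 to 55637901 and from 55638075 to 55640176. Pairs with gaps of 246 bp on chromosome 9 and 296 bp on chromosome 13 followed. Such neighbours may be parts of 1 site and are not independent. The densest stretches of 500 kb, named outside the set rule for naming regions, held 6 open regions each. No like scan of closed or constant open regions was made. One on chromosome 12 spanned 71795089 to 71993260 with 6 open among 12 SMC3 regions in all and no region called in all 4 SMC3 lists. It includes the region from 71807422 to 71809766, the eighth by myoblast rank. Another on chromosome 1 spanned 151693259 to 151999536, with 6 open among 15 regions and again none called in all 4 lists. The one on chromosome 10, from 110734850 to 111183868, held 6 among 23, with 1 region of all 4 lists. Of these 6 regions each, the second siDRR SMC3 library called 1, 1 and 2.

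By chromosome, 1 and 2 held the most open regions, 128 each. The share of myoblast-only regions that were open ran from 18.4% on X, where it was 23 of 125, to 34.2% on chromosome 12, with 34.1% on 15 and 34.0% on 3 close to it.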

How the data were processed

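Peak lists of 16 C2C12 libraries were used: SMC3 ChIP-seq, ATAC-seq and DRR ChIRP-seq, with n = 2 libraries in each of 8 groups. Each deposited list gives 1 interval and 1 score per peak and was made by the authors per library, not on pooled replicates. The submitters' processing notes name build mm9, the peak callers MACS 1.4.2 and MACS2, the aligners Bowtie2 2.2.4 and Bowtie 1.1.1, the trimmer cutadapt 1.12, and bcl2fastq 2.17.1 with CASAVA 1.8.2, without tying any to an assay. The score's scale, the threshold and control of the peak calls, and whether ATAC reads were shifted: not given in the sources used here. SMC3 scores start at 50 and ATAC scores at 30. ChIRP lists hold single-base summits. Replicate lists shared few identical intervals, 1.41% of the shorter list or less, so none was a repeat deposit.

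Starts were converted to 1-based positions and peaks off chromosomes 1 to 19 and X left out. A library called a region when a peak shared at least 1 bp with it. ChIRP summits were widened by 250 bp. A region's rank percentile is that of its best peak. Shares carry exact (Clopper-Pearson) 95% binomial intervals. The mean shares of the siSmc3 and siDRR ATAC libraries were compared with a two-sided exact permutation test over libraries. Weighted shares of a second set were averaged over 10 rank or width classes, or 5 by 5 for both, with the weights of the open myoblast-only regions. Python 3.11.15, numpy 2.4.6, pandas 2.3.3, scipy 1.17.1 and matplotlib 3.10.9 were used, and the merging and calling steps were tested on simulated lists.

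The regions, lists and tests were chosen with earlier results of these data known. Regions were named by a set rule: the 10 highest and 3 lowest in mean myoblast rank, the 3 highest just outside the rule, the 5 highest in control ATAC rank, up to 5 of those without ATAC peaks under each knockdown or both, those called in both siDRR SMC3 lists or touched by both ChIRP pools, the 5 widest and the closest pairs. The text gives those of each kind that the results turn on. Regions chosen otherwise are marked as such in the text. Inputs, LacZ controls, gene annotation and genome sequence were not used here, so no region is assigned to a gene. Alternatives were the better-scoring 50% of each list, lists of equal length, an overlap of 100 bp, merging within 200 bp, ChIRP widening of 500 bp, a replicate block and leaving out each replicate.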

Additional observations from a re-analysis of the deposited data

How the results depend on the processing

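The number of open myoblast-only regions, 1544, was 1541 with a 100 bp overlap and 1536 with peaks merged within 200 bp. It fell to 318 with the better-scoring 50% of each list, to 125 with lists of equal length and, in a setting chosen after the data had been seen, to 240 with the myotube and myoblast SMC3 lists alone of equal length. The first of these 3 overlapped 58 (3.76%) of the 1544, the second 2 and the third 68. These settings leave fewer peaks by construction, and the cause was not tested further. Leaving out a replicate number gave 5709 to 6716 regions, since 1 list then decides.

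The same 3 settings left 318, 125 and 240 regions against 1544, so the counts below have unlike bases. At least 1 siDRR library called 68, 61 and 168 regions, against 407. Both libraries called 17 with either equal-length setting, against 2. Leaving out a replicate number gave 281 to 1149 for both counts, and leaving out 1 siDRR library with the regions held fixed gave 9 to 400, a setting also chosen after the data had been seen, as are the like ones below. Regions without an ATAC peak numbered 8 of 318, 4 of 125 and 4 of 240 under siDRR, against 16 of 1544. Under siSmc3 they numbered 3, 6 and 8 of the same sets, against 12 of 1544. As shares of their sets these losses were not smaller than in the main setting. Background shares of ATAC loss were not computed for these settings. Leaving out the first replicates gave 492 under siDRR and 415 under siSmc3, of 6716 regions. Leaving out the second replicates gave 744 and 1122, of 5709 regions. Leaving out 1 library with the regions held fixed gave 17 to 157 and 19 to 293. The regions touched by both ChIRP pools numbered 1 of 318, 2 of 125 and 1 of 240, against 4 of 1544. They numbered 17 of 6716 without the first replicates and 1 of 5709 without the second. They numbered 6 with 500 bp widening. The cause was not tested.

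The difference of siSmc3 minus siDRR, -4.47 points, was -3.62 with the better-scoring 50% (p = 1, exact permutation), -8 with equal lengths (p = 0.667) and -3.13 with the SMC3 lists cut. Without a replicate it ran from -6.62 to 1.15, and it was 1.15, the opposite sign, without the first replicates. With a replicate block it was -4.47 (exact sign-flip p = 0.5, the smallest 2 pairs allow). The labels do not say that a shared number marks a shared culture or day. No alternative gave a difference that passed the threshold, which this design cannot reach.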
